A study of Homo sapiens with 8 samples.

Results

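CD38 and BST1 lie next to each other on chromosome 4 and read in the same direction, with the BST1 start 75.3 kb before the CD38 start. The peaks described here are those that overlap the body of either gene or the 50 kb on each side of it (GENCODE release 44, build hg38), which together span chr4:15653065-15903232. ATAC-seq tags open chromatin with a transposase, and a peak is a stretch where tagged fragments pile up over the local background. Overlapping peaks of the 4 lists were joined into 37 regions, of 161291 in the whole series, and a region was called in a list when that list held a peak in it. Of these regions 24 lay in the CD38 window, 22 in the BST1 window and 9 in both.

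The cells were U-937, an established human myeloid leukaemia line of monocytic character. All 4 groups were treated for 24 h. The first group received DMSO, the vehicle, and is the control. The second received ATRA (all-trans retinoic acid, which binds retinoic acid receptors) at 0.1 µM. The third received Corin at 0.1 µM, a compound that inhibits the demethylase and deacetylase activities of the CoREST co-repressor complex. The last received both compounds at 0.1 µM each and is called the combination below. Each group had 2 samples but 1 peak list, so the values below have no replicate error and differences between groups were not testable. The dose of DMSO is not given in the sources used here. At the promoters of 12 myeloid markers a region was called at 10, 10, 11 and 10 in the order DMSO, ATRA, Corin and combination, which included SPI1, CEBPA, ITGAM and CD33, and MPO had none. CD2, a T cell marker, and PAX5, a B cell marker, also had a called promoter in every list, and CD3D, CD3E and MS4A1 had none.

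CD38 is a surface enzyme that breaks down NAD and makes the calcium messengers cyclic ADP-ribose and ADP-ribose. It is a known marker of the response of myeloid leukaemia cells to retinoic acid, and its first intron is known to carry a retinoic acid response element. BST1, also called CD157, is a related ectoenzyme that is anchored in the membrane by a lipid and is known from bone marrow stroma and myeloid cells. Retinoic acid receptors bind, with RXR partners, pairs of a short half-site, and the spacing gives the pair its name, as in DR5 for a direct repeat with 5 bases between.

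Sequences of 200 bp around the strongest summit are shown for 5 regions that the results turn on. They are read from hg38, 5′ to 3′. In the CD38 start region the capitals mark a DR5 pair with 1 mismatch, read on the minus strand as GGGGCACTTTCGGGTCA. In BST1 intron 7 they mark a match to the AP-1 motif, and at +27.5 and +104.5 kb a match to the core of the CTCF motif (searched with N at 3 of its 11 positions). At +31.0 kb, where none of the motifs searched was found, they mark the 11 bases centred on the summit. Distances in kb are counted from the start of the canonical CD38 transcript unless BST1 is named.
CD38 start, intron 1 (chr4:15779015-15779214, plus strand): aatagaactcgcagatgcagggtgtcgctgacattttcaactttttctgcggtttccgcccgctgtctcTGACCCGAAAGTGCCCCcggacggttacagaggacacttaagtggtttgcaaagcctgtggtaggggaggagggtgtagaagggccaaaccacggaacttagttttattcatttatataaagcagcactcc
CD38 intron 1, +27.5 kb (chr4:15805714-15805913, plus strand): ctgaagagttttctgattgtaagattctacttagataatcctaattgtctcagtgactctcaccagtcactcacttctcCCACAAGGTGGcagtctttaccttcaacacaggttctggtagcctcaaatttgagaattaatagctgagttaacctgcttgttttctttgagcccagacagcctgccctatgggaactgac
CD38 intron 1, +31.0 kb (chr4:15809198-15809397, plus strand): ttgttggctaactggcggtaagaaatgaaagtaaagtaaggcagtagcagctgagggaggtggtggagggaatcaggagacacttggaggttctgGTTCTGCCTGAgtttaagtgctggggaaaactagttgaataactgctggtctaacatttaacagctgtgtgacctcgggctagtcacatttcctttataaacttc
3′ of CD38, +104.5 kb (chr4:15882703-15882902, plus strand): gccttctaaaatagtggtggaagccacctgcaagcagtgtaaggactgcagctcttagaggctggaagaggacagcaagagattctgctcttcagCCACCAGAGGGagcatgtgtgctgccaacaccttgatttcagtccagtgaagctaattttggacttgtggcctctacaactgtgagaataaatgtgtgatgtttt
BST1 intron 7 (chr4:15720954-15721153, plus strand): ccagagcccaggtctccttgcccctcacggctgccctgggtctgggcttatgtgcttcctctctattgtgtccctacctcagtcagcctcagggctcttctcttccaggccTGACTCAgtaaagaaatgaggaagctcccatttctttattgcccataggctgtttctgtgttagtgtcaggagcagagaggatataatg

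The 37 regions were called 25 times in the DMSO list, 33 times in the ATRA list, 20 times in the Corin list and 22 times in the combination list. They covered 16957, 23440, 14943 and 17023 bp in the same order. A set of 17 regions was called in all 4 lists and 11 in a single list. Of those 11, 9 were called only in the ATRA list, or 24.3% of the locus regions, against 11.4% of all regions of the series with that pattern. The ATRA list added regions mainly 3′ of CD38, where it held 9 regions against 3 in each of the other lists.

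**Figure D1:**
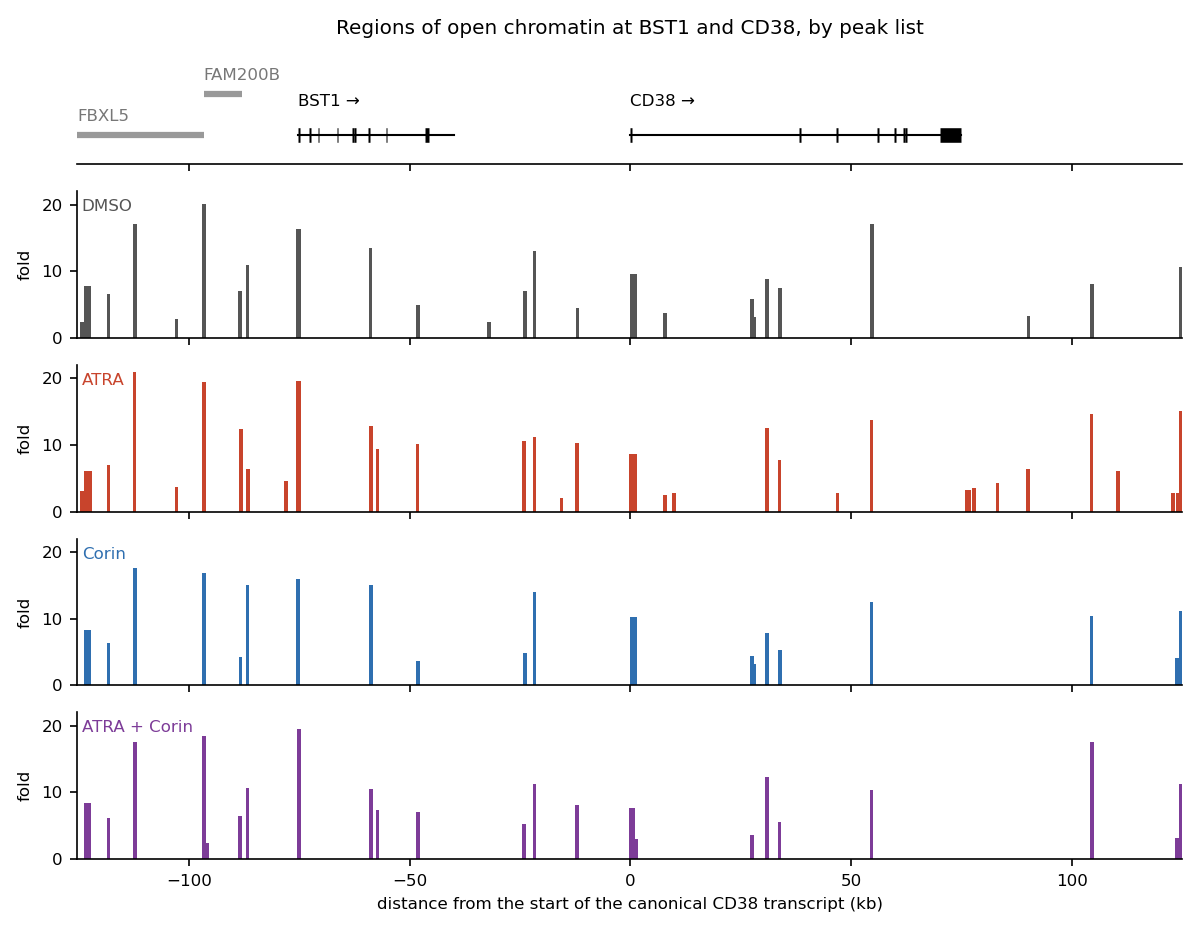
Regions called in each list along the locus. The x axis is the distance from the CD38 start in kb, each bar is a region (narrow ones are widened so that they can be seen) and its height is the highest fold of its peaks. Gene models are drawn above, with arrows for the direction of reading. The ATRA track holds 33 bars, including 9 beyond the 3′ end of CD38.

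**Figure D2:**
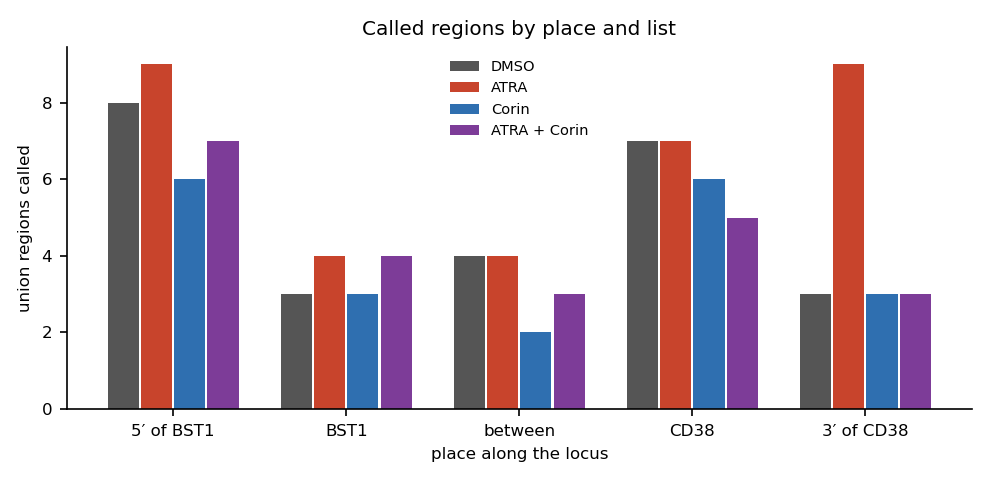
Number of regions called in each list, by place along the locus (5′ of BST1, in BST1, between the genes, in CD38 and 3′ of CD38). In CD38 itself the counts were 7, 7, 6 and 5 in the order DMSO, ATRA, Corin and combination.

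At the CD38 start the open region lay over exon 1 and the first part of intron 1 in all 4 lists. Intron 1 starts at chr4:15778648, and the region ended at 15779729 with DMSO. With ATRA and the combination it reached further upstream. It began at chr4:15778138 with DMSO, at 15778141 with Corin and at 15777948 with both ATRA and the combination, 190 bp further 5′ than with DMSO. Beside the position, 2 measures of height are used. The fold (column 7) is the authors' ratio of the pileup to the local background, each raised by 1. The pileup, the number of reads stacked at the summit, was solved from the deposited fold and p.

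The region held 4 summits in each list. At the summit nearest the transcription start, 14 to 84 bp after it, the pileup was 224 with DMSO, 670 with ATRA, 231 with Corin and 540 with the combination. The 95% Poisson intervals, which cover counting error only, were 196 to 255, 620 to 723, 202 to 263 and 495 to 588, so both lists with ATRA lay above both without it. The pileup with ATRA was 2.99 times that with DMSO, and with the combination 2.41 times. In bulk cells, a larger share of cells with the site open and more cutting in each cell cannot be told apart. The fold at this summit was 5.06, 7.78, 5.06 and 7.32. Across the 66303 regions called in all 4 lists the median highest pileup was 234, 269, 213 and 257. These medians give the scale of each list and not the spread of single regions. Relative to the median of all regions shared with DMSO, the highest pileup of the whole start region was 1.65, 1.21 and 1.18 times DMSO. These values are for ATRA, Corin and the combination. Of the shared regions, 85.6%, 75.4% and 69.0% had a lower ratio.

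The other summits of the CD38 start region, all in intron 1, did not follow this order. About 0.5 kb into the gene the pileup was 361, 407, 472 and 563, highest with the combination. About 0.8 kb in, where the DR5 pair with 1 mismatch starts at +756 (chr4:15779084-15779100, intron 1), it was 427, 754, 395 and 479. There the ATRA list stood alone: its interval of 701 to 810 did not meet that of the combination, 437 to 524. About 1.2 kb in, the pileup was 180, 367, 169 and 213. In the combination list this last summit formed a region of its own, with a fold of 2.97, apart from the other 3.

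The fold alone shows less at this region. Its highest value was 9.68 with DMSO, 8.68 with ATRA, 10.3 with Corin and 7.61 with the combination, so the ATRA list was below DMSO by this measure and above it by pileup. The local background under the +0.8 kb summit was 43.2, 86.0, 44.8 and 73.1 reads, higher in both lists with ATRA. That is 3.38 times the commonest background of the DMSO list but 9.43 times that of the ATRA list, against 3.41 and 5.24 for Corin and the combination. Relative to the median of all regions shared with DMSO, the highest fold of the ATRA list was 0.711 times and its highest pileup 1.65 times that of DMSO. The part of the local background in these folds was not tested.

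**Figure D3:**
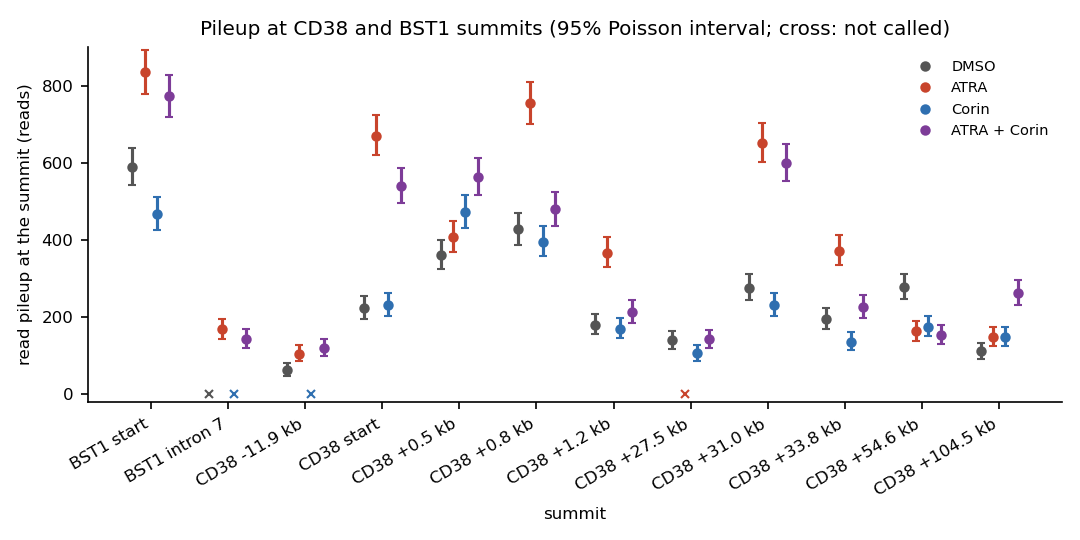
Read pileup at summits of CD38 and BST1 in each list. Points are the solved pileup in reads, bars its 95% Poisson interval (counting error only), and crosses mark lists in which the region was not called. The ATRA and combination points stand above the other pair at the CD38 start (670 and 540 against 224 and 231) and at +31.0 kb.

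Within the 37863 bp of CD38 intron 1, beyond the start region, 6 further regions were found, and the lists split most clearly at +31.0 kb (chr4:15808753-15809795). The pileup there was 276 with DMSO, 651 with ATRA, 230 with Corin and 599 with the combination. The intervals of the ATRA list (602 to 703) and the combination (552 to 649) overlapped each other and lay above those of DMSO (244 to 311) and Corin (201 to 262). Fold gave the same order of pairs, at 8.82, 12.5, 7.83 and 12.4. After centring on the median of all shared regions, the pileup was 2.20 times that of DMSO with ATRA, 0.912 times with Corin and 1.94 times with the combination. By fold the centred ratios were smaller, at 1.12, 0.942 and 1.37, so no treatment passed 1.5-fold by that measure. The combination reached 0.925 times the ATRA pileup. Of all regions shared by the ATRA and DMSO lists, 93.9% had a lower ratio of pileups and 62.9% a lower ratio of folds.

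A neighbouring region of intron 1 at +33.8 kb was higher with ATRA but not with the combination. Its pileup was 195, 372, 135 and 226 in the order DMSO, ATRA, Corin and combination. The interval of the ATRA list, 335 to 412, was apart from that of the combination, 197 to 257, which overlapped the DMSO interval of 169 to 224. By fold the 4 values were 7.43, 7.77, 5.35 and 5.50, and none of the 3 treatments passed 1.5-fold against DMSO. Local background was again higher in the lists with ATRA, at 47.0 and 40.3 reads against 25.4 with DMSO and 24.4 with Corin.

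The intron 1 region at +27.5 kb showed the opposite presence. It was called with DMSO at a fold of 5.83, with Corin at 4.46 and with the combination at 3.66, and was absent from the ATRA list. The pileup was 139, 106 and 142 reads, so the combination equalled DMSO in reads while its local background was 38.0 against 23 reads. The core match to the CTCF motif, the binding sequence of a factor that organises chromatin loops, lay with its middle 16 bp from the summit. The small region beside it at +28 kb was called with DMSO (3.12) and Corin (3.15) only.

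The rest of intron 1 held weak regions. At +7.8 kb a region was called with DMSO at 3.77 and ATRA at 2.49, with pileups of 51 and 45. At +9.9 kb only the ATRA list held one, with a fold of 2.73 and a pileup of 34. Such a region sits near the bottom of its list: 4.45% of the ATRA regions were weaker by p.

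The later introns of CD38 held 2 regions. In intron 3 at +54.6 kb (chr4:15832542-15833360) the DMSO list stood above the other 3. The pileup was 277 with DMSO, 163 with ATRA, 175 with Corin and 153 with the combination, and the DMSO interval of 245 to 312 lay above the others, whose highest bound was 203. The fold was 17.1, 13.7, 12.4 and 10.3. After centring, the fold was 0.635 times that of DMSO with ATRA, 0.772 times with Corin and 0.591 times with the combination. At exon 3 and the start of intron 3 the ATRA list alone called a region, with a fold of 2.77 and a pileup of 27. No region was called in introns 2 and 4 to 7.

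BST1 was open at its start in all 4 lists, and the region over exon 1 and intron 1 (chr4:15702566-15703659) was among the stronger ones of the locus. The pileup at its summit was 589 with DMSO, 834 with ATRA, 467 with Corin and 772 with the combination. As at the CD38 start, the lists with ATRA were above those without, with intervals of 778 to 893 and 718 to 828 against 542 to 639 and 426 to 511. The distance between them was smaller: 1.42 and 1.31 times DMSO for ATRA and the combination. The fold was 16.3, 19.6, 16 and 19.5, and no treatment passed 1.5-fold against DMSO once centred. For ATRA, Corin and the combination the centred fold was 0.951, 1.04 and 1.17 times DMSO, so ATRA was slightly below DMSO by that measure. By pileup the centred ratios were 1.32, 0.868 and 1.17. Of all regions shared by the ATRA and DMSO lists, 43.8% had a lower ratio of folds and 74.6% a lower ratio of pileups.

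Intron 7 of BST1 held the one region of the locus that was called with ATRA and with the combination and in neither of the other lists. It lay 18 kb after the BST1 start (chr4:15720921-15721212). Its fold was 9.45 with ATRA and 7.36 with the combination, over pileups of 168 (144 to 195) and 143 (121 to 168) reads. These are not values at the edge of calling: 57.9% of the regions of the ATRA list and 52.0% of those of the combination were weaker. Of all regions of the series, 3.2% had this pattern of calls. A match to the AP-1 motif lay at chr4:15721065-15721071 beside the summit at 15721054.

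The other regions of BST1 were called in every list. The region 16.6 kb into the gene, also in intron 7, had folds of 13.5, 12.9, 15 and 10.5, highest with Corin. The one in intron 8 had folds of 5.0, 10.2, 3.68 and 7.10, so the lists with ATRA were again the highest. Its pileups were low, at 68, 102, 51 and 105 reads. The DMSO interval of 52.8 to 86.2 overlapped those of ATRA, 83.2 to 123.8, and of the combination, 85.9 to 127.1. Against DMSO the centred fold in intron 8 was 1.61 times with ATRA, 0.780 times with Corin and 1.39 times with the combination. By pileup the centred ratios were 1.40, 0.821 and 1.38, so none passed 1.5-fold by that measure. Against Corin, the centred log2 ratio of the combination was 0.85.

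Between the genes, the region at -11.9 kb followed ATRA too. It was called with DMSO at a fold of 4.57, with ATRA at 10.2 and with the combination at 8.10, and was not called with Corin. The pileups were 62 (48 to 79), 105 (86 to 127) and 120 (99 to 143), so the DMSO interval stood below the others. The centred fold was 1.78 times that of DMSO with ATRA and 1.74 times with the combination. Further from CD38, the region at -23.8 kb was highest with ATRA at 10.6, against 7.06 with DMSO, 4.80 with Corin and 5.27 with the combination. At -21.7 kb the order was another, with 13, 11.2, 14.1 and 11.3 for DMSO, ATRA, Corin and the combination. The region at -32.0 kb was called in the DMSO list only, with a fold of 2.39.

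3′ of CD38 the region at +104.5 kb (chr4:15882318-15883127) was highest with the combination. Its pileup was 111 with DMSO, 147 with ATRA, 147 with Corin and 262 with the combination, and only the interval of the combination, 231 to 296, lay apart from all the others. The fold was 8.12, 14.6, 10.5 and 17.6. Here the local background was at the commonest level of each list. The centred ratios of combination to DMSO were 2.13 by fold and 2.11 by pileup. Those of ATRA were 1.43 and 1.23, and those of Corin 1.37 and 1.45. The part of the local background in these ratios was not tested. Of all regions shared by the combination and DMSO, 98.3% had a lower ratio of folds. The core match to the CTCF motif was centred on the summit.

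The remaining 3′ regions were mostly calls of the ATRA list. It alone called those at +76.5, +77.9, +83.1, +110.3 and +122.9 kb, with folds of 3.24, 3.57, 4.25, 6.13 and 2.77. The region at +90.1 kb was called with DMSO at 3.33 and with ATRA at 6.42. At +123.9 kb a region was called in the 3 treated lists and not with DMSO, at 2.74 with ATRA, 4.14 with Corin and 3.10 with the combination. The region at +124.6 kb, at the edge of the window, had 10.7, 15.1, 11.2 and 11.3. Over the 9 regions called with ATRA alone, the pileup ran from 20 to 201 with a median of 42. In the 17 regions called in every list it ran from 102 to 1382 in the ATRA list, with a median of 379.

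**Figure D4:**
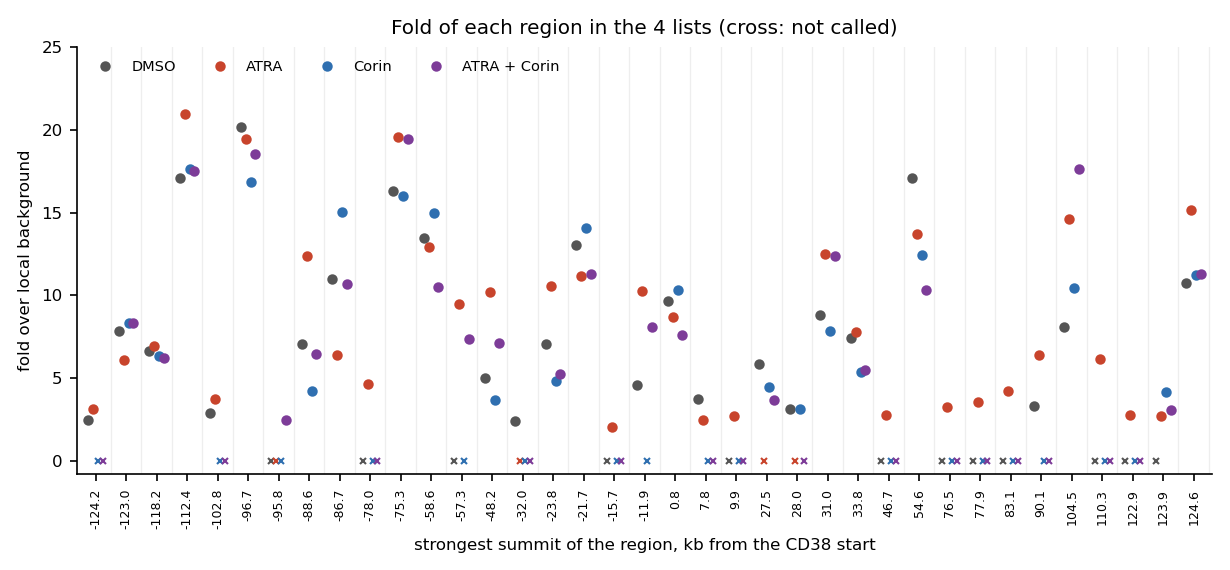
Highest fold over local background of each of the 37 regions in the 4 lists, ordered along the chromosome; the x axis gives the strongest summit in kb from the CD38 start, and crosses at 0 mark lists without a call. The region at -57.3 kb, in BST1 intron 7, has points for ATRA and the combination only.

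Upstream of BST1 the window takes in FBXL5, which encodes a sensor subunit of an iron-regulated ubiquitin ligase, and FAM200B. These share one start region, called in all lists with folds of 20.2, 19.4, 16.9 and 18.5 for DMSO, ATRA, Corin and the combination. The regions at -123.0 and -118.2 kb also lay at annotated starts of FBXL5. The region 11.4 kb before BST1 was lower with ATRA, at 6.39, than with DMSO (11), Corin (15) or the combination (10.7). The region 13.3 kb before BST1 had the opposite order, with 12.4 for ATRA against 7.06, 4.24 and 6.47. The lncRNA ENSG00000288606 spans both.

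Counted over the locus, ATRA gained 11 of its 33 regions over DMSO, where 23.1% of all ATRA regions were gained, and lost 3 of 25 DMSO regions, against 25.3% of all. Gained means without an overlapping region in the other list. Of the 22 regions shared with DMSO, 3 were at least 1.5-fold higher after centring (16.6% of all shared regions) and 4 lower (8.8%). The higher ones were in BST1 intron 8 and at -11.9 and +90.1 kb. The lower ones were those at -123.0 kb, at an annotated start of FBXL5, and at -86.7, +7.8 and +54.6 kb. By pileup 5 of 22 were higher (18.3%) and 2 lower (16.4%), and the higher set then held the CD38 start and the intron 1 regions at +31.0 and +33.8 kb. With lists reduced to equal length, the ATRA gains fell to 5.

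Corin gained 1 of its 20 regions, at +123.9 kb, against 17.7% of all Corin regions. It lost 6 of 25, against 28.5%, with DMSO folds between 2.39 and 4.57, the highest being that of the region at -11.9 kb. Of 19 shared regions 0 were higher (6.34% of all) and 1 was lower (10.8%), the region at -88.6 kb. At the CD38 start, the BST1 start and +31.0 kb the centred fold of Corin over DMSO was 1.13, 1.04 and 0.942. By pileup 2 of 19 were higher (10.2%) and 0 lower (13.9%).

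The combination gained 3 of its 23 regions over DMSO (16.7% of all), which were BST1 intron 7, -95.8 and +123.9 kb, and lost 6 of 25 (31.5%). Of 19 shared regions 2 were higher (8.26%), at -11.9 and +104.5 kb, and 2 lower (12.1%), at +27.5 and +54.6 kb. By pileup 4 of 19 were higher (12.5%) and 2 lower (19.4%). These counts and those for the single compounds share the DMSO list, so they are set side by side only.

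Set against ATRA, the combination lacked 13 of the 33 ATRA regions, where 28.4% of all ATRA regions were lacking, and added 2 of 23 (15.5%), at -95.8 and +27.5 kb. Of 20 shared regions 3 were higher in the combination (7.18%) and 2 lower (18.1%). The higher ones were at -123.0, -86.7 and +104.5 kb, the lower ones at -88.6 and -23.8 kb. By pileup the counts were 4 higher (12.9%) and 3 lower (19.8%). At the CD38 start the highest pileup of the combination was 0.751 times that of ATRA. Set against Corin, the combination added 3 of 23 (20.6%), which were BST1 intron 7, -95.8 and -11.9 kb, and lacked 1 of 20 (25%). Of 19 shared regions 2 were higher (9.71%) and 2 lower (8.97%), with 2 (12.4%) and 3 (15.8%) by pileup.

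**Figure D5:**
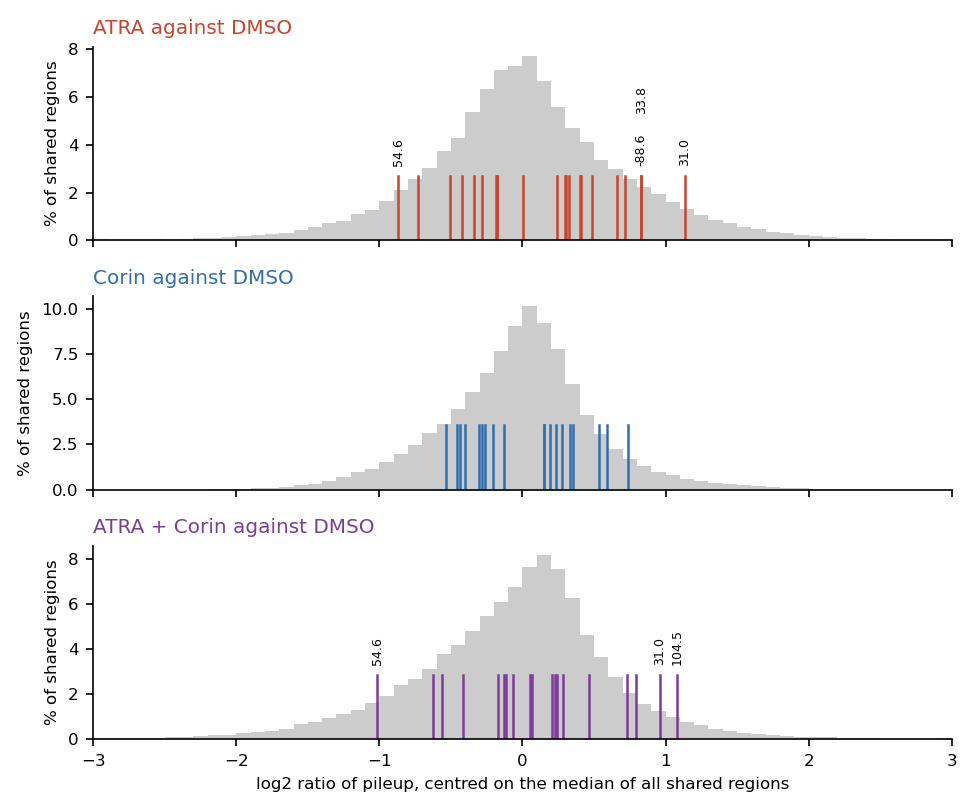
Where the locus regions lie among all shared regions. Grey bars give the percent of regions shared with DMSO by log2 ratio of pileup, centred on their median, and coloured lines mark the locus regions. Those of at least 0.8 in size are labelled with their kb from the CD38 start; +31.0 kb is at 1.14 with ATRA and 0.96 with the combination.

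A search of 10 motifs in the 200 bp windows gave no match in the 37 locus windows for DR5, DR2, DR1, PU.1 (GAGGAAGT), GFI1 or IRF. Of all windows of the series, 0.0905% held DR5 and 6.73% PU.1. Both strands were read and an exact fit to the motif was asked for. AP-1 (TGANTCA) was found in 6 of 37 windows, C/EBP (TTGCNNAA) in 6, RUNX (TGTGGT) in 8 and SP (GGGCGG) in 4. The shares over all windows were 12.2%, 14.5%, 20.7% and 11.4%, beside 16.2%, 16.2%, 21.6% and 10.8% of the locus windows. The BST1 start window held C/EBP and SP matches, and the window at +0.8 kb of CD38 held RUNX and SP matches.

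With 1 mismatch allowed, a choice made after the data were seen, DR5 was found once in the CD38 body, in the start region as shown above. In BST1 it was found 4 times, each time outside the called regions. At this setting 2 of the 37 windows held it, the CD38 start and -23.8 kb, against 1.36% of all windows. The CTCF core, also searched after the sequences were seen, was in 2 of 37 windows and in 4.33% of all.

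CD38 and BST1 themselves differed in how the summed fold over their bodies ranked across the lists. The sum of fold minus 1 over a gene's regions, as log2 with 1 added, was 5.64, 5.48, 5.27 and 5.23 for CD38 and 5.04, 5.62, 5.03 and 5.37 for BST1. Centred on each list's median over 16811 coding genes and on the gene's own mean, CD38 was highest with DMSO (0.28) and lowest with ATRA (-0.19), and BST1 was highest with the combination (0.17) and lowest with DMSO (-0.18). The 5 genes nearest to CD38 over the 4 lists were ANXA2R, CST2, ODR4, GOLGA8A and ATF2, at Euclidean distances of 0.041 to 0.057. Among those nearest to BST1 were KRTAP16-1, INPP5B, ANKRD35 and TSC22D2, at 0.012 to 0.026, while CD38 and BST1 were 0.618 apart. These distances rest on 4 values per gene and are a description only. They also rest on fold, and at CD38 pileup gave another order: the centred ratio of ATRA to DMSO was 0.711 by fold and 1.65 by pileup in the start region, and 0.829 and 1.78 at +33.8 kb.

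Genes that make or use NAD, a set of calcium channels and the CD38 ligand PECAM1 were read in the same way. The channels included the inositol trisphosphate receptors ITPR1, ITPR2 and ITPR3, with 49, 20 and 11 regions. The list held 34 genes with 354 regions within 10 kb of a gene body. ATRA gained 48 of the 354 (16% of all regions of the series), lost 64 (17.9%), and had 27 higher (8.76%) and 25 lower (4.63%). Corin gained 38 (10.9%), lost 60 (20%), and had 16 higher (3.2%) and 19 lower (5.47%). The combination gained 34 (9.59%), lost 67 (22.3%), and had 18 higher (3.98%) and 23 lower (5.84%). All shares in brackets are those over all regions of the series. As shares of the 354 regions, ATRA had 13.6% gained, 18.1% lost, 7.63% higher and 7.06% lower. The first 3 shares were near the background and the share of lower regions was above it.

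Genes were named where a region was gained, or at least 1.5-fold higher, with both ATRA and the combination over DMSO. This held for 26 of the 354 regions (7.34%), against 6.59% of all regions of the series, so the share is near the background. The 26 lay at 18 of the 34 genes, and the rule picks regions that went up, so the values below are examples only. Among calcium channels, ITPR3, a receptor for inositol trisphosphate, had a region at chr6:33654651-33655616 with a fold of 3.48 with DMSO, 17.5 with ATRA and 6.39 with the combination, not called with Corin. TRPM2, the channel that ADP-ribose opens, had 5.39, 13.1, 4.37 and 11.2 at chr21:44390529-44392375. ITPR2 had 5.22, 12.2, 4.24 and 12.3, and TPCN1, a channel for the messenger NAADP, 5.4, 10.6, 5.06 and 10.05 in the order of the lists. Other named channel regions had Corin above DMSO. One of ITPR1 had 1.63 with DMSO and 2.46 with Corin, and regions of ITPR1, TPCN1, RYR1 and RYR3 were called with Corin (2.55, 2.99, 2.33 and 5.09) but not with DMSO.

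Among enzymes, NMNAT1, which makes NAD in the nucleus, had 4.71, 14.1, 9.36 and 11.6, so Corin was above DMSO there too. SIRT2, a deacetylase that uses NAD, had 9.06, 20.01, 10.001 and 14.96. NT5E, the ectoenzyme CD73 that acts on nucleotides at the cell surface, had 2.92 with DMSO, 8.27 with ATRA and 6.63 with the combination. PECAM1, the surface ligand of CD38, had 4 such regions, among them one at chr17:64344223-64344938 with 3.13, 8.34, 2.76 and 6.70. NAMPT and SIRT1 had 1 region each, and neither was gained, lost or past 1.5-fold in any treatment.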

How the data were processed

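ATAC-seq was made from 8 U-937 samples, 2 in each of 4 groups, and the data used here are 1 deposited narrowPeak list per group, assigned through the treatment that its name carries. The authors joined the replicates of a group into that list, and per the file names the lists come from a naive overlap and were filtered. The submitters' processing notes name cutadapt, Bowtie2, SAMtools, Picard, MACS2 and hg38, with no versions or settings. Per the narrowPeak layout of the deposited files, the columns give a score, a fold (a ratio of pileup to local background), and −log10 values of p and q, all computed by the authors, with the summit as an offset in bp. Sample read depth is unknown. All 832045 peak ends lay within hg38 chromosome lengths.

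Overlapping peaks of a list were merged, and an overlap of 1 bp counted as shared. Overlap counts equalled those of bedtools 2.31.1 in 10 of 10 comparisons. A region's fold is the highest of its peaks. Ratios were centred on the median log2 ratio of all regions shared by the lists compared, and 1.5-fold was the limit. Centring removed median log2 shifts in fold over DMSO of 0.33 (ATRA), -0.09 (Corin) and 0.03 (combination). Pileup and background were solved from fold and p (Poisson tail, 1 added to each in the fold). The pileup came out whole within 0.05 for 99.96% to 99.98% of peaks. The commonest background was 12.8, 9.12, 13.1 and 13.9 reads for DMSO, ATRA, Corin and the combination, and the lowest −log10 p was 2.79 with DMSO and 2.00 in the others. Methods were tested on simulated data. Python 3.11.15, numpy 2.4.6 and scipy 1.17.1 were used.

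The members, gene lists and tests were chosen with earlier results of these data known. Regions named in full are those in either gene body or near its starts, the 3 strongest of each flank, and flank regions gained or lost in at least 2 of 3 treatments; others named were chosen after their values were seen. Of the items the naming rules select, 2 are not reported here. Of the 2 members, 1 matched the RefSeq promoter table, which was not used. No per-sample columns were present, so 0 were left out.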

Additional observations from a re-analysis of the deposited data

How the results depend on the processing

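No paired analysis was possible because each list joins both replicates of its group. Leaving out a replicate was not possible for the same reason. Of 130 alternative counts for the locus, 91 stayed within 1.5 times the main count and 39 moved, all of them small numbers. A limit of 5 on −log10 q, the peak with the highest −log10 p, and the added limit at the lowest −log10 p of the DMSO list moved none. With lists of equal length, regions gained with ATRA went from 11 to 5 and ATRA regions absent from the combination from 13 to 6. An overlap of 50% gave 2 regions gained with Corin, and merging peaks within 150 bp gave 1 region gained by the combination over ATRA. With 10 kb on each side, a smaller window, gains over DMSO were 7 with ATRA, 0 with Corin and 1 with the combination. Losses in that window were 2 with Corin and 3 with the combination, and higher and lower shared regions were 1 and 2 with ATRA. Lower regions were 0 with Corin, and higher ones 0 with the combination. Against ATRA the combination then gained 1, lost 7, and had 0 higher and 0 lower. Against Corin it gained 1 and had 1 higher and 1 lower. Without centring, 5 shared regions were higher and 2 lower with ATRA over DMSO. The combination had 1 higher than ATRA, and 4 higher and 0 lower than Corin. At a 2-fold limit ATRA had 0 higher and 1 lower, Corin 0 lower, and the combination 1 higher and 0 lower over DMSO. The combination had 1 higher and 0 lower than ATRA, and 0 higher and 0 lower than Corin. With pileup in place of fold, chosen after seeing the data, ATRA had 5 higher and 2 lower, Corin 2 higher and 0 lower, and the combination 4 higher. The smaller window and the 2-fold limit cannot give more regions than the main setting, by construction. Lists of equal length can move a count either way, and with them regions lost with ATRA over DMSO went from 3 to 4. For these lists and the other alternatives the cause was not tested. Of 180 alternative values for single regions, 6 moved, all with pileup. The sign changed for 9 of 60 values with pileup, including the CD38 start with ATRA (-0.49 to 0.72) and with the combination (-0.37 to 0.24) and +33.8 kb with ATRA (-0.27 to 0.83). It changed for 6 of 60 without centring. None of the values that changed sign had passed 1.5-fold by fold. Without replicate spread and with pileups of 20 to 201 reads in regions called with ATRA alone, a missing call says only that no peak passed the authors' limits.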
